A study of Mus musculus with 12 samples.

Results

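The 12 islet libraries differed widely in insulin RNA. They were ranked by the RPKM (reads scaled by transcript length and by the mapped reads of the library) of Ins2, and the 6 highest were set against the 6 lowest of the 12. RNA had been sequenced from hand-picked pancreatic islets of male mice, 4 of each genotype, with 1 library per animal. WT mice carried no mutant allele, Wfs1HZ mice carried 1 Wfs1tm1Koks allele and Wfs1KO mice carried only that allele. In this allele a LacZ cassette takes the place of most of exon 8, in every tissue and not in beta cells alone, so that a shortened WFS1 fused to LacZ can still be made. All animals were F2 hybrids of 129S6/SvEvTac and C57BL/6, aged 5 to 6 months, and all islets spent a night in high glucose medium before RNA was taken. Each insulin group held 2 WT, 2 Wfs1HZ and 2 Wfs1KO samples. Because the groups were chosen by a measured value, all differences between them are descriptions and carry no test. In bulk RNA, fewer cells of a type and less RNA per cell cannot be told apart.

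Insulin is the hormone of the beta cell, which makes up most of a mouse islet. Mice have a pair of insulin genes, Ins2, the counterpart of the human gene, and Ins1, a copy that arose by retroposition. The beta cell packs insulin with amylin (Iapp) and granins into dense-core granules, cuts proinsulin with Pcsk1 and Pcsk2, and releases the granules when glucose closes its potassium channels. Alpha cells make glucagon (Gcg), delta cells somatostatin (Sst) and PP cells pancreatic polypeptide (Ppy). Hand-picked islets also carry acinar, duct, vessel, stromal and immune cells.

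The largest Ins2 value was 11.9-fold above the smallest. In the high group Ins2 was 76687 RPKM in WT 4, 68564 in Wfs1HZ 3, 67080 in WT 1, 59053 in Wfs1HZ 4, 33525 in Wfs1KO 1 and 24433 in Wfs1KO 2. In the low group it was 23011 RPKM in WT 3, 21237 in Wfs1HZ 1, 15292 in WT 2, 14220 in Wfs1KO 3, 9199 in Wfs1KO 4 and 6423 in Wfs1HZ 2. The boundary was therefore narrow, since Wfs1KO 2, the last sample inside the high group, was 1.06-fold above WT 3, the first outside it. Ranking by the sum of Ins1 and Ins2 put all 12 samples in the same groups. The values of Wfs1, the targeted gene, were 24.9 to 33.9 RPKM in WT, 4.69 to 16.4 RPKM in Wfs1HZ and 2.45 to 6.61 RPKM in Wfs1KO. The lowest of the Wfs1HZ values belonged to Wfs1HZ 2 and lay inside the Wfs1KO range.

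A pair of libraries in the low group stood apart. In Wfs1HZ 2 and Wfs1KO 4, an estimated 1.17% and 1.13% of the reads came from a list of acinar genes, against 6.48% to 34.9% in the other samples. Shares of reads and read numbers per gene are estimates from RPKM and the length of the first GENCODE transcript, since the annotation behind the RPKM is not given in the sources used here. The library labelled Wfs1HZ 2 also had the lowest estimated depth, 2189000 reads, where the others had up to 9557000. Its lower quartile over all entries was 0.97 RPKM, against 0 to 0.32 RPKM elsewhere, and its olfactory receptor genes, which islets should hardly express, averaged 2.63 RPKM against 0.131 to 0.574 RPKM. The part of these raised low values in the differences of weakly expressed genes was not tested. Values without both libraries are therefore given for the hormones, the genes without overlap and the lists, and for other genes where they moved by over 1.5 times or changed sign. With all 12 samples the median gene of 13356 with a mean of at least 1 RPKM had a high minus low difference of -0.16 on the log2(RPKM + 0.1) scale, and 33.3% of genes were higher in the high group. Without both libraries that median was -0.06. The median of each list is to be read against these values.

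Ins1 and Ins2 share stretches of identical sequence that bear on how their reads can be divided. Over 456 aligned bases of the first GENCODE transcript of each gene (M21, mm10), 90.8% were the same. The longest shared stretches are shown in lower case, 5′ to 3′. The first has 56 bases and ends within the stop codon, in exon 3 of Ins2, at chr7:142678714-142678769 on the minus strand, and in exon 2 of Ins1, at chr19:52264894-52264949 on the plus strand. The second has 49 bases of coding sequence in exon 2 of Ins2, at chr7:142679377-142679425, and in exon 2 of Ins1, at chr19:52264732-52264780.
Ins1 and Ins2, end of the coding sequence: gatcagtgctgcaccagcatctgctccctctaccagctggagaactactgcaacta
Ins1 and Ins2, upstream coding stretch: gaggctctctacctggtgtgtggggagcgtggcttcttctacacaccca
A forward read of 75 bases cannot fall wholly inside either stretch, as 0 of 404 windows of 75 bases in Ins2 occur in Ins1. Of 444 windows of 35 bases, the length of the reverse read, 37 do, or 8.33%. The split of the insulin reads between the genes is thus uncertain for some of them, and how many was not tested. Only exact matches were counted, so reads that map with mismatches are not covered.

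The promoters of the hormone genes are shown for a gene that was high with Ins2, its granule partner and the hormone that was low. Each is the stretch of 250 bases before the RefSeq transcription start (GRCm38.p6, the build of mm10), 5′ to 3′ on the gene's strand, with the letters CATCTG or their reverse complement CAGATG in capitals. This is the E box form that NEUROD1, a factor of islet endocrine cells, is known to bind. The Ins1 window lies at chr19:52264047-52264296 on the plus strand, the Iapp window at chr6:142298175-142298424 on the plus strand and the Gcg window at chr2:62483654-62483903 on the minus strand.
Ins1: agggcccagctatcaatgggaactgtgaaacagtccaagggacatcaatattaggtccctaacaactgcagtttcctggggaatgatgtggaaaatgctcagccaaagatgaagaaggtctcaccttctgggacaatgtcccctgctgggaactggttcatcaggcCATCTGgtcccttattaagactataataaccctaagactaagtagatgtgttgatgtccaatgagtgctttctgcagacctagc
Iapp: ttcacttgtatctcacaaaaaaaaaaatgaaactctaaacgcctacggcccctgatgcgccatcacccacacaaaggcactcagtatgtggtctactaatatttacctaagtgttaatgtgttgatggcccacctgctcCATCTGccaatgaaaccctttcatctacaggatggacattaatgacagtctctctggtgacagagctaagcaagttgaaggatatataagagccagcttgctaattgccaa
Gcg: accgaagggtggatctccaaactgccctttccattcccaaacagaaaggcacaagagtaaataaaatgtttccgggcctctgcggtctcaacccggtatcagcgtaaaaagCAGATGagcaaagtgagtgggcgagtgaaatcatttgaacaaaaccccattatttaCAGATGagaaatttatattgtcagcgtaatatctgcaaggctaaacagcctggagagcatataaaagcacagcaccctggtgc
The Ins1 and Iapp windows each held 1 copy and the Gcg window 2, and 14.4% of all 32851 RefSeq windows held at least 1. A match describes these letters only.

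Ins1 and Iapp were higher in every high-insulin sample than in any low-insulin sample. Ins1 RPKM was 42367 at the lowest, 54775 at the median and 91587 at the highest of the high group, and 4981, 15798 and 23203 in the low group, so the groups did not overlap. Its high minus low difference was 2.15 (SE 0.37, 6 against 6), or 1.70 without Wfs1HZ 2 and Wfs1KO 4. The difference of Ins2, on which the groups were selected, was 1.90 (SE 0.40), or 1.49 without both. Iapp, whose product amylin is released with insulin, was 6865, 8398 and 13725 RPKM in the high group and 1059, 3647 and 5273 RPKM in the low group. Its difference was 1.48 (SE 0.38), or 1.08 without both libraries. By genotype the Ins2 differences were 1.93 in WT, 2.45 in Wfs1HZ and 1.32 in Wfs1KO, and those of Iapp 1.62, 1.90 and 0.93. Their sign was fixed beforehand by the ranking for Ins2 and by the lack of overlap for Iapp. The sizes for Ins2 come from the values that ranked the samples. In each genotype they describe 2 samples against 2. Per length, Ins1 stood at 0.757 to 1.73 times Ins2 in the high group and at 0.775 to 1.30 times in the low group, and those ranges overlapped. Under 4 other scalings, named with the counts of genes, the groups of Ins1 and of Iapp stayed apart in 3, and after quantile normalization the Ins1 difference was 0.54.

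Glucagon RNA lay the other way, but with overlap. Gcg was 50073, 66334 and 91180 RPKM at the lowest, median and highest of the high group and 52640, 132429 and 217165 RPKM in the low group. Its difference was -0.87 (SE 0.33), or -0.57 without both libraries, and it was negative in WT (-1.10), Wfs1HZ (-0.72) and Wfs1KO (-0.79). In the low group only Wfs1KO 3, which had 33.4% acinar reads, lay within the range of the high group. Gcg exceeded Ins2 alone in 9 of the 12 samples, and the 3 where it did not, WT 4, WT 1 and Wfs1HZ 4, were all in the high group. The sum of Ins1 and Ins2 was above Gcg in those and also in Wfs1HZ 3 (120452 against 91180 RPKM) and Wfs1KO 1 (82452 against 50073 RPKM). Sst differed by 0.14 (SE 0.33; 0.22 without both), Ppy by -0.53 (SE 0.55; -0.07 without both) and Pyy, peptide YY, by -0.16 (SE 0.35; -0.13 without both), each with overlapping groups, and Pyy took the value 0.03 after median-of-ratios scaling. Wfs1 differed by 0.56 (SE 0.77), or -0.10 without both libraries.

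**Figure D1:**
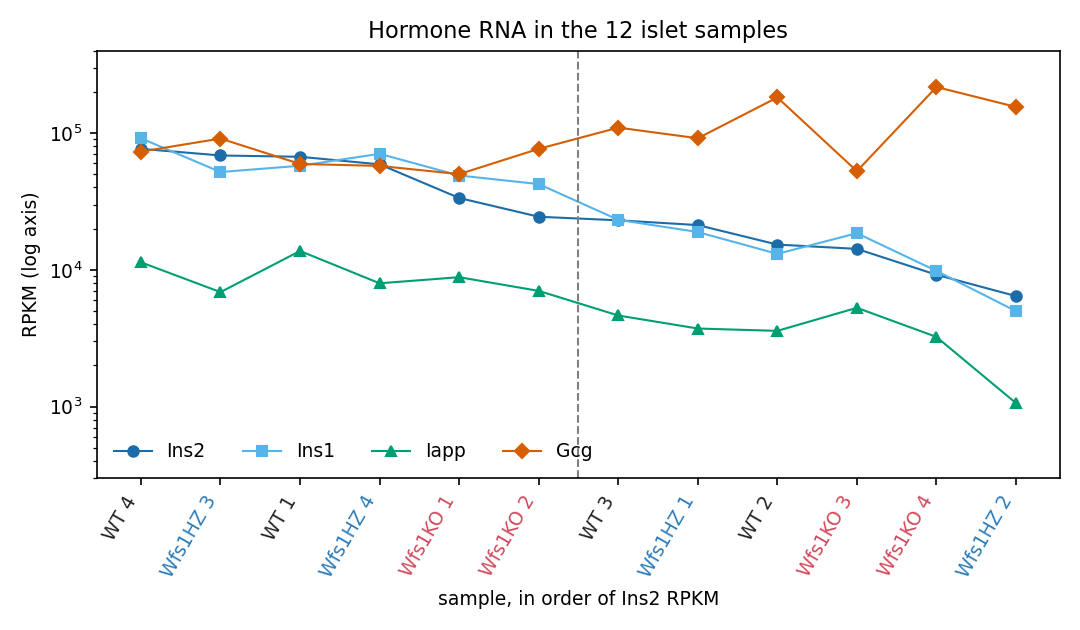
RPKM of Ins2, Ins1, Iapp and Gcg on a log axis, with 1 point for each of the 12 samples in order of Ins2, label colours marking genotype (WT black, Wfs1HZ blue, Wfs1KO red) and the dashed line dividing the high group on the left from the low group on the right. Ins1 and Iapp do not overlap between the groups, whereas Gcg of Wfs1KO 3, at 52640 RPKM, lies within the high group's range.

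Across the 13356 genes, 30 were higher in all 6 high samples than in any low sample (0.225% of genes) and 42 were lower in all 6 (0.314%). Since the ranking used these same libraries, nothing is read from those shares. A mean difference of at least 2-fold was seen for 225 genes upward (1.68%) and 788 downward (5.9%). Of the genes without overlap, 20 of the 30 higher but 4 of the 42 lower had a mean of at least 10 RPKM. The split of higher to lower turned with the scaling. It was 99 to 67 after median-of-ratios scaling, 76 to 54 after quantile normalization, 57 to 22 when the reads of Ins1 and Ins2 were taken out of the total and 54 to 115 when acinar and hormone reads were taken out. Without Wfs1HZ 2 and Wfs1KO 4 it was 60 to 57, where fewer samples can only keep or add genes without overlap. The 30 higher genes had a median transcript length of 1991 nt and a GC content of 55.3%, the 42 lower genes 3422 nt and 48.8%, and all 13356 genes 2664 nt and 50.0%.

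Several of the genes that followed insulin RNA are known from the beta cell or from granule traffic. Mreg, melanoregulin, a protein of lysosome-related organelles, was 57.6, 81.6 and 113 RPKM at the lowest, median and highest of the high group and 12.7, 31.8 and 41.6 RPKM in the low group (difference 1.60, SE 0.29; chromosome 1, 72159442 to 72212307). Bace2, a membrane protease of beta cells that cleaves TMEM27, was 43.6, 47.7 and 81.5 RPKM against 8.23, 24.9 and 26.7 RPKM (1.53, SE 0.33; chromosome 16, 97356742 to 97442936). The WT differences of Mreg and Bace2 were 1.70 and 1.48, those in Wfs1HZ 1.32 and 1.67 and those in Wfs1KO 1.77 and 1.43, with a sign that the lack of overlap fixes. Without Wfs1HZ 2 and Wfs1KO 4 the differences were 1.23 and 1.07, and neither gene's groups overlapped under any of 4 other scalings. Kcnh1, a voltage-gated potassium channel, had 5.84, 6.97 and 10.1 RPKM in the high group and 1.08, 2.78 and 4.61 RPKM in the low group, a difference of 1.53 (SE 0.33), or 1.09 without both. Vgf, a granin-like cargo of dense-core granules, had 6.57, 11.1 and 14.3 RPKM against 1.24, 4.13 and 6.26 RPKM, a difference of 1.45 (SE 0.36), or 1.06 without both, and its groups overlapped under 3 of the 4 other scalings.

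Other followers were less closely tied to the granule. Hspb6, a small heat shock protein, differed by 1.32 (SE 0.26) and Pparg, a nuclear receptor of lipid metabolism, by 0.84 (SE 0.15), and without both libraries by 1.28 and 0.84. Pparg was 11.9 to 19.7 RPKM in the high group and 6.85 to 10.5 RPKM in the low group. Chchd10, of the mitochondrial intermembrane space, differed by 1.08 (SE 0.30; 1.15 without both) and Tomm6, of the outer membrane import complex, by 1.07 (SE 0.33; 0.92 without both). Both, like Rnasek (0.94, SE 0.29; 0.80 without both), overlapped under 3 of the 4 other scalings. Tmem90a differed by 0.95 (SE 0.14; 0.83 without both) and B830017H08Rik by 1.52 (SE 0.24; 1.49 without both), and both held without overlap under all 4. Among genes of 1 to 10 RPKM, Tssc1 (1.47, SE 0.55), 2610018G03Rik (1.18, SE 0.40) and Gm11127 (1.14, SE 0.30) were also higher, and without both libraries their values were 0.85, 1.27 and 0.84. The groups of Tssc1 and of Gm11127 stayed apart under 1 of the 4 other scalings and those of 2610018G03Rik under 3. Gm11127 resembles other class I histocompatibility genes, so its reads may be divided uncertainly. It rested on about 2.0 to 29.8 reads per sample and Tssc1 on as few as 1.0 read.

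The genes that opposed insulin RNA at 10 RPKM or more were 4. Sparcl1, a secreted matrix protein of vessel walls, was 1.85, 6.27 and 11.9 RPKM at the lowest, median and highest of the high group and 12.4, 19.4 and 71.8 RPKM in the low group (difference -2.03, SE 0.55; chromosome 5, 104079111 to 104113733). It was -1.57 without Wfs1HZ 2 and Wfs1KO 4, and the groups stayed apart under all 4 other scalings. Timp3, an inhibitor of matrix metalloproteases, was 12.5, 23.1 and 39.1 RPKM against 41.0, 44.7 and 90.6 RPKM (-1.16, SE 0.36; -1.01 without both), and overlapped under 2 of the 4. By genotype the values were unequal, with Sparcl1 differences of -2.60 in WT, -2.67 in Wfs1HZ and -0.82 in Wfs1KO and Timp3 differences of -1.68, -1.50 and -0.29, and the inequality was not tested. Pard6b, a polarity protein of epithelia, was 14.8 to 22.1 RPKM against 24.6 to 63.0 RPKM (-0.88, SE 0.21; -0.63 without both), and stayed apart under 1 of the 4. Nup43, a nucleoporin, was 7.25 to 10.4 RPKM against 10.8 to 15.6 RPKM (-0.50, SE 0.13; -0.60 without both), and its groups overlapped under all 4 other scalings.

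The named opposing genes of 1 to 10 RPKM had at least 1 library with under 6 reads by estimate. Ldb2, a LIM-domain binding cofactor of endothelium, was 0.35, 0.86 and 1.10 RPKM in the high group and 1.43, 2.92 and 13.95 RPKM in the low group (-1.94, SE 0.50; -1.41 without both), the highest value being that of Wfs1HZ 2. C4bp, a complement regulator, differed by -1.99 (SE 0.46; -1.42 without both), 6330403A02Rik by -2.06 (SE 0.48; -1.47) and Ctag2 by -2.19 (SE 0.75; -1.42). Olfr467, an olfactory receptor gene, was listed at 0 in 5 of the 6 high samples and at 0.11 RPKM in the other, and at 0.12 to 10.3 RPKM in the low samples. Its largest value, also in Wfs1HZ 2, stands for about 20.9 reads. Its difference was -2.95 (SE 0.80; -1.99 without both) and depended on the pseudocount, being -1.03 with a pseudocount of 1. For a transcript of 2 kb, 3 reads equal 0.685 RPKM in the library of lowest depth and 0.157 RPKM in the deepest, so such levels are near the limit of detection by counting error alone.

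**Figure D2:**
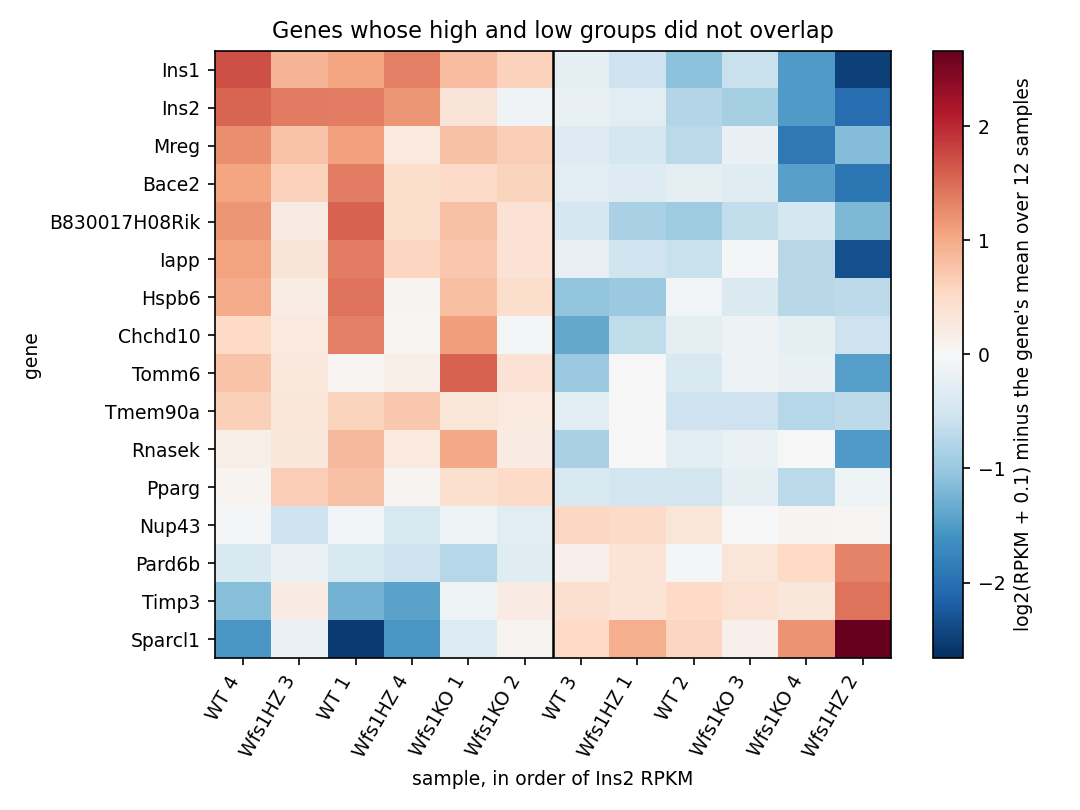
Each row is a gene with a mean of at least 10 RPKM and no overlap between the groups, chosen by the size of its difference, together with Ins1 and Ins2, columns are the 12 samples in order of Ins2, and colour is log2(RPKM + 0.1) minus the gene's mean. The 12 rows above Nup43 are redder on the left of the line and the 4 opposing genes are redder on the right, Sparcl1 and Timp3 most so in Wfs1HZ 2.

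Granule cargo and processing genes were mostly higher in the high group. Apart from Ins2, which is higher by construction, 9 of 11 cargo genes were higher and 3, namely Ins1, Iapp and Vgf, did not overlap, with a median of 0.40 (0.42 without Wfs1HZ 2 and Wfs1KO 4). The granins Chga (0.57, SE 0.24) and Scg2 (0.61, SE 0.23) were higher with overlap, and Scgn, a calcium sensor, was lower (-0.78, SE 0.44; -0.37 without both). Of 8 genes of prohormone processing and zinc loading 7 were higher, with a median of 0.42 (0.31 without both), and 0 separated the groups fully. Pcsk1, the convertase that starts proinsulin cleavage, was 13.5, 21.3 and 44.5 RPKM at the lowest, median and highest of the high group and 5.77, 9.71 and 15.8 RPKM in the low group, a difference of 1.22 (SE 0.32), or 1.00 without both. Pcsk2, the other convertase, differed by 0.29 (SE 0.23; 0.10 without both). Ptprn, the granule protein IA-2, was 65.2, 96.7 and 128 RPKM against 33.1, 51.3 and 68.4 RPKM, a difference of 0.91 (SE 0.21).

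Among the genes by which the beta cell senses glucose, 14 of 19 were higher, with a median of 0.52 (0.32 without both libraries). G6pc2, the islet glucose-6-phosphatase, differed by 1.09 (SE 0.42), Ucn3, a marker of mature beta cells, by 1.02 (SE 0.43; 0.63 without both) and Glp1r, the incretin receptor, by 0.98 (SE 0.37; 0.60 without both). Slc2a2, the glucose transporter, differed by 0.32 (SE 0.46). The potassium channel subunits Abcc8 and Kcnj11 differed by 0.57 (SE 0.31) and -0.04 (SE 0.27), or 0.29 and -0.09 without both. Gpr119, a lipid receptor, was lower, at 0.43, 1.25 and 1.94 RPKM against 1.14, 3.08 and 6.50 RPKM (-1.35, SE 0.48; -0.83 without both). All these groups overlapped.

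The transcription factors of the beta cell were mixed. Of 12 measured, 7 were higher and 5 lower, with a median of 0.03, or 0.26 without both libraries. Nkx6-1, which maintains beta cell identity, was 11.0, 15.0 and 24.8 RPKM in the high group and 4.03, 7.78 and 14.1 RPKM in the low group, a difference of 1.14 (SE 0.35) that was positive in WT (0.94), Wfs1HZ (0.85) and Wfs1KO (1.63), and was 1.06 without both. Pdx1 differed by 0.23 (SE 0.36; 0.49 without both), Neurod1 by 0.26 (SE 0.24; 0.44) and Isl1, shared by all islet endocrine cells, by -0.47 (SE 0.33; -0.26). Mafa and Mnx1 had a mean below 1 RPKM and were not compared. The exocytosis genes had a median of 0.19 (0.25 without both), with 10 of 18 higher. Sytl4, granuphilin, was 4.15, 5.98 and 15.6 RPKM at the lowest, median and highest of the high group and 2.03, 3.02 and 5.96 RPKM in the low group, a difference of 1.03 (SE 0.37).

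Markers of the other endocrine cells were lower or similar. All 9 alpha cell genes were lower, with a median of -0.43 (-0.39 without both libraries, when 2 were higher). Ttr, transthyretin, was 724, 957 and 1683 RPKM against 684, 2160 and 3798 RPKM (-0.94, SE 0.41), and Sstr2, the somatostatin receptor of alpha cells, differed by -1.21 (SE 0.64). Of 6 delta cell genes 5 were lower, with a median of -0.65 (-0.56 without both). Sst itself was the exception, while Ghsr, the ghrelin receptor, differed by -1.08 (SE 0.48) and Hhex by -0.89 (SE 0.54). Of the PP cell genes 2 were measured, Ppy and Pyy, with a median of -0.35 (-0.10 without both).

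Most stromal and vessel genes were lower in the high group. Of 22 stromal and matrix genes 21 were lower, with a median of -1.33, where 33.3% of all genes were higher. By at least 2-fold 17 were lower, against 5.9% of all genes. The summed stromal level was 99.1 RPKM at the lowest, 197 at the median and 335 at the highest of the high group, and 275, 340 and 1215 RPKM in the low group. The largest sums were those of Wfs1HZ 2 and Wfs1KO 4, and without them the median was -0.83 with 21 of 22 still lower. The collagen gene Col3a1 was 0.54, 1.48 and 4.27 RPKM against 2.01, 5.12 and 22.7 RPKM (-2.08, SE 0.68), and Sparc, a collagen-binding protein, differed by -1.49 (SE 0.49; -0.98 without both). Timp1, an inhibitor of metalloproteases that is induced by inflammation, was the member that was higher, by 1.70 (SE 0.73), or 0.78 without both. The median was -1.19 in WT, -2.23 in Wfs1HZ and -0.40 in Wfs1KO.

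Of 17 endothelial genes 16 were lower, with a median of -0.73 (-0.62 without both libraries, when all 17 were). Flt4, a receptor for vascular growth factors, was the only one without overlap, at 0.17, 1.24 and 2.11 RPKM against 2.20, 2.47 and 3.96 RPKM (-1.45, SE 0.52; -1.33 without both). Flt1 differed by -0.99 (SE 0.30) and Cdh5, the cadherin of vessel walls, by -0.95 (SE 0.44). The endothelial median was -1.05 in WT and -0.96 in Wfs1HZ but 0.14 in Wfs1KO, a difference that was not tested. The 4 nerve and glia genes had a median of -0.56 (-0.43 without both). It was -0.74 in WT and -1.42 in Wfs1HZ but 0.39 in Wfs1KO, also not tested.

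The direction of the acinar genes depended on the libraries included. With all samples 31 of 33 were higher in the high group, with a median of 0.82. Without Wfs1HZ 2 and Wfs1KO 4 only 4 were higher and the median was -0.30. The summed acinar level was 80724, 102246 and 367203 RPKM at the lowest, median and highest of the high group and 11337, 97963 and 343353 RPKM in the low group. Sycn, a zymogen granule protein, differed by 1.18 (SE 0.85) and by 0.05 without both, and Prss2, a trypsinogen, by 1.12 (SE 0.84) and -0.06. Of 14 duct genes 11 were higher, with a median of 0.14, and without both libraries 5 were, with a median of -0.15. By genotype the acinar medians were -0.08 in WT, 2.03 in Wfs1HZ and 0.60 in Wfs1KO, an inequality that was not tested. The Wfs1HZ samples included Wfs1HZ 4 in the high group, with 34.9% acinar reads, and Wfs1HZ 2 in the low group, with 1.17%. For the duct genes the medians were -0.09 in WT, -0.08 in Wfs1HZ and 0.11 in Wfs1KO. Cftr, the chloride channel of ducts, had the largest difference of them and was lower, at 1.11, 2.26 and 4.08 RPKM against 3.47, 5.01 and 15.0 RPKM (-1.35, SE 0.40; -1.06 without both).

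**Figure D3:**
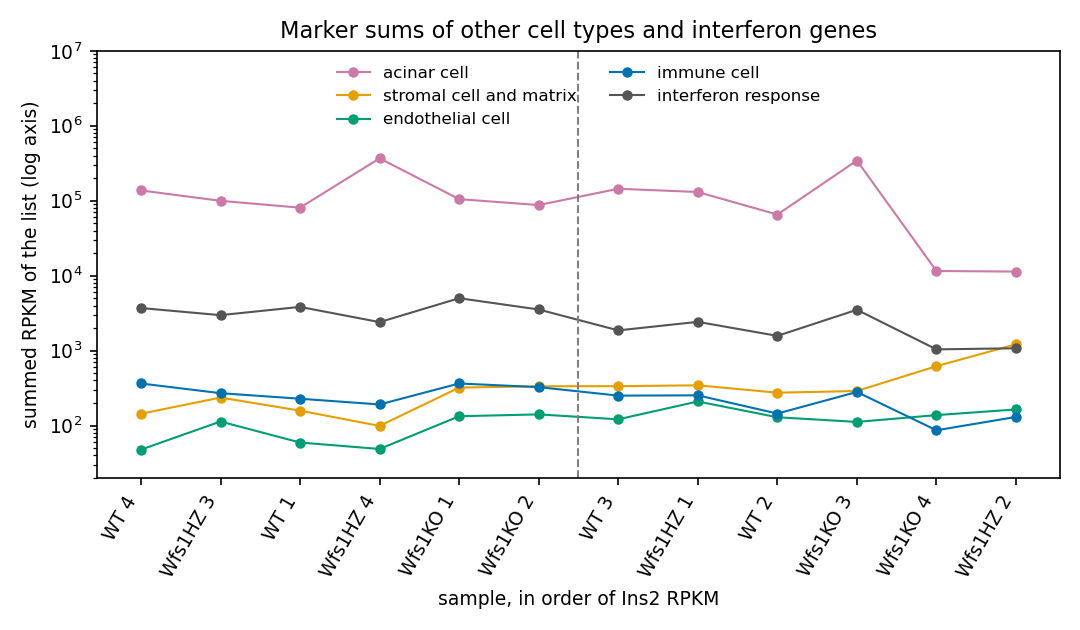
Summed RPKM of the acinar, stromal, endothelial, immune and interferon lists on a log axis, with 1 point per list in each of the 12 samples in order of Ins2 and a dashed line between the groups. The acinar sum drops to 11545 and 11337 RPKM in Wfs1KO 4 and Wfs1HZ 2, where the stromal sum is largest.

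Interferon-responsive and class I antigen presentation genes were all higher on average in the high group, though Irf1 by 0.00 only (-0.16 without both). The 18 members had a median of 0.69, and 7 were at least 2-fold higher, against 1.68% of all genes, but 0 were without overlap. Without Wfs1HZ 2 and Wfs1KO 4 the median was 0.45 and 17 were higher. Medians were 0.69 in WT, 0.76 in Wfs1HZ and 0.97 in Wfs1KO. Ifit3, an antiviral effector, was 5.88, 14.5 and 18.1 RPKM at the lowest, median and highest of the high group and 0.45, 3.34 and 28.1 RPKM in the low group (2.01, SE 0.82; 1.49 without both). Irf7, the factor that amplifies the response, differed by 1.86 (SE 0.70; 1.14 without both), and B2m, the light chain of class I molecules, by 1.27 (SE 0.40; 0.81 without both). The sums of the list were 2401, 3619 and 5003 RPKM in the high group and 1040, 1718 and 3509 RPKM in the low group. The largest of the low group came from Wfs1KO 3, with its high acinar share, and the smallest from Wfs1KO 4 and Wfs1HZ 2, with the lowest acinar share. The part of acinar RNA in this result was not tested.

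For the NF-kB targets, chemokines and cytokines the pattern depended on both libraries. With all samples 23 of 25 were higher, with a median of 0.52, and without both 15 were, with a median of 0.08. By genotype, with all samples, the median was 0.25 in WT, 0.08 in Wfs1HZ and 1.19 in Wfs1KO, an inequality that was not tested. Saa3, an acute phase protein, differed by 2.11 (SE 1.05; 1.09 without both) and Lcn2, a siderophore binder, by 0.85 (SE 0.65; 0.08 without both). Immune cell genes were mixed, with 9 of 16 higher and a median of 0.08 (-0.20 without both). Cd68, a lysosomal protein of macrophages, was 42.4, 62.9 and 142 RPKM against 11.1, 24.0 and 54.0 RPKM (1.48, SE 0.41), whereas Ptprc, which marks all leukocytes, differed by -0.84 (SE 0.65; -0.36 without both) and Emr1, the macrophage marker F4/80, by -0.83 (SE 0.52; -0.49 without both). The lymphocyte genes Cd3e (-1.08, SE 0.33; -1.12 without both, no overlap) and Cd79a (-2.30, SE 0.81) were lower, at 2.62 and 9.21 RPKM or less. Cd3e rested on about 3.1 to 20.2 reads per sample, and its groups stayed apart under 2 of the 4 other scalings.

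Genes of the endoplasmic reticulum had list medians of 0.04 to 0.23. The median of all genes was -0.16 (-0.06 without both libraries), and 33.3% of all genes were higher. The 20 chaperones and folding enzymes had a median of 0.11 (0.09 without both libraries), with 15 higher. Hspa5, the chaperone BiP, differed by -0.22 (SE 0.30) and Hsp90b1 by -0.05 (SE 0.24; -0.08 without both). Translocation, glycosylation and export genes had a median of 0.23 (0.16), with 24 of 30 higher, led by Sec61g of the translocon (0.84, SE 0.36) and Sec11c of the signal peptidase (0.62, SE 0.21). The 21 stress sensors and genes of the integrated stress response had a median of 0.04 (0.09). Xbp1 differed by 0.43 (SE 0.25; 0.11 without both), Ddit3, the factor CHOP, by 0.14 (SE 0.24; 0.21) and Slc7a11, the cystine transporter, by -0.87 (SE 0.23). In the 2 Wfs1KO samples against 2 the chaperone median was 0.62, where it was 0.11 in WT and -0.04 in Wfs1HZ, and these were not compared by a test.

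Most oxidant defence genes were lower, as were most genes. Of 17 measured 13 were lower and 4 higher, where 33.3% of all genes were higher. The median was -0.30 (-0.23 without both libraries), or -0.11 after median-of-ratios scaling. Hmox1, heme oxygenase, was 73.3, 102 and 129 RPKM at the lowest, median and highest of the high group and 129, 237 and 400 RPKM in the low group (-1.18, SE 0.29), so the groups overlapped in 1 sample each. Srxn1, sulfiredoxin, differed by -0.79 (SE 0.27; -0.50 without both), Gclc, of glutathione synthesis, by -0.65 (SE 0.19) and Txnrd1, thioredoxin reductase, by -0.57 (SE 0.21). The 4 higher members were the metallothioneins Mt1 (0.50, SE 0.38) and Mt2 (0.90, SE 0.38; 0.57 without both), Prdx4, a peroxiredoxin (0.04, SE 0.28; -0.21 without both), and Gsr, glutathione reductase (0.01, SE 0.21; 0.12 without both). Among dedifferentiation markers and genes that beta cells normally repress, 11 of 12 were lower, where 33.3% of all genes were higher. The median was -0.32 (-0.35), or -0.12 after median-of-ratios scaling and also after quantile normalization. Without such scaling the median was -0.34 in WT and -0.67 in Wfs1HZ but 0.11 in Wfs1KO, which was not tested. Catalase (Cat), which is also in the oxidant list, differed by -0.62 (SE 0.18). Aldh1a3, a marker of failing beta cells, was the exception at 0.85 (SE 0.54).

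The remaining lists had medians between -0.27 and 0.21. Immediate early genes had a median of -0.27 (-0.24 without both libraries), or -0.08 after median-of-ratios scaling. Of 20 members 5 were higher, where 33.3% of all genes were, and 15 lower, Fosb the most so (-1.61, SE 0.59; -0.94 without both). Their median was -0.54 in WT and -0.59 in Wfs1HZ but 0.33 in Wfs1KO, a difference that was not tested. Hypoxia and glycolysis genes had a median of 0.21 (0.08), nuclear genes of oxidative phosphorylation 0.10 (0.18) and long nuclear and imprinted RNAs 0.13 (0.08). Ribosomal proteins had a median of -0.05 (0.04) and proteasome subunits of -0.04 (-0.06), and both turned positive after median-of-ratios scaling (0.15 and 0.16) and both rescalings. Cell cycle genes had -0.12 (-0.02), which became 0.07 by median-of-ratios and 0.11 by quantile normalization. Ccnd1, cyclin D1, was the most different cell cycle gene (-0.96, SE 0.32).

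**Figure D4:**
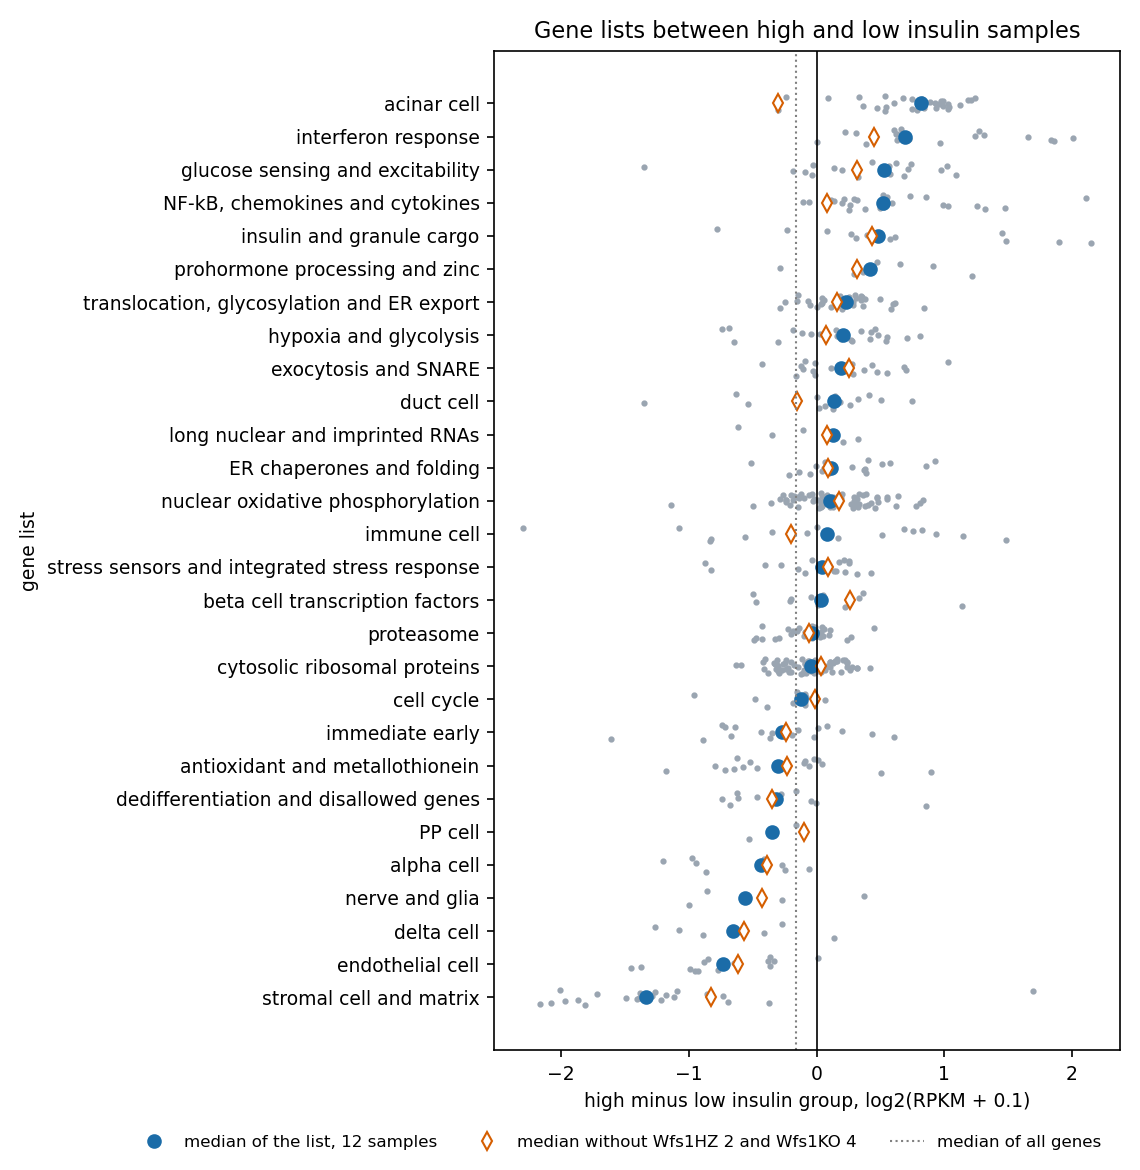
High minus low difference on the log2(RPKM + 0.1) scale for each gene (grey points) of 28 lists, with the median over all 12 samples (filled circles), the median without Wfs1HZ 2 and Wfs1KO 4 (open diamonds) and the median of all genes (dotted line, -0.16). The stromal list lies farthest to the left at -1.33, and the acinar median moves from 0.82 to -0.30.

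Genotype, which comes from the labels and not from the ranking, was tested. Ins2 was 45517 ± 30858 RPKM in WT, 38819 ± 29737 in Wfs1HZ and 20344 ± 10834 in Wfs1KO (mean ± SD, n = 4 each). The highest Ins2 of any Wfs1KO sample was below 2 of the 4 values of each other genotype. The log2 difference of Wfs1KO from WT was -1.02 (SE 1.24, adjusted p = 0.979 by limma over 13356 genes), that of Wfs1HZ from WT -0.43 (SE 1.12, adjusted p = 0.999) and that of Wfs1KO from Wfs1HZ -0.59 (SE 1.16, adjusted p = 1). These SEs depended on the trend of variance with expression level that limma fitted. Without that trend they were 0.60, 0.82 and 0.75, and no difference passed (Wfs1KO against WT, adjusted p = 0.923 by limma). By an exact two-sided permutation test, whose smallest possible p with 4 against 4 is 0.029, the p-values were 0.2, 0.686 and 0.514 (each 0.748 after adjustment over 12 comparisons). Neither Ins1, with exact p-values of 0.543, 0.629 and 1, nor Iapp, with 0.571, 0.371 and 0.571, passed the threshold in any comparison. The Wfs1HZ difference from WT turned to 0.27 without Wfs1HZ 2.

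The ratio of Ins1 to Ins2 was 0.979 ± 0.160 in WT, 0.904 ± 0.202 in Wfs1HZ and 1.39 ± 0.280 in Wfs1KO (SD, n = 4). It was 1.73, 1.46, 1.30 and 1.07 in the Wfs1KO samples and at most 1.19 in the others, so that 3 of 4 Wfs1KO values were above all of them. On the log2 scale Wfs1KO exceeded WT by 0.50 (SE 0.19, exact permutation p = 0.0571, adjusted p = 0.343) and Wfs1HZ by 0.62 (SE 0.21, exact permutation p = 0.0571, adjusted p = 0.343). Neither passed the threshold. Wfs1HZ and WT differed by -0.13 (SE 0.19, exact permutation p = 0.543).

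**Figure D5:**
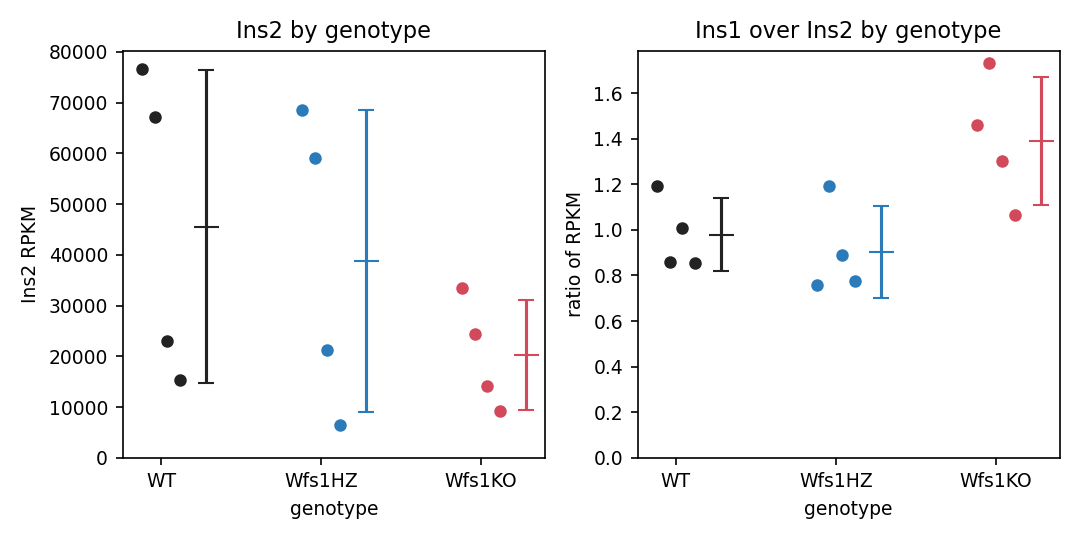
Ins2 RPKM (left) and the ratio of Ins1 to Ins2 RPKM (right) in the 4 animals of each genotype (points), with the mean and SD beside them. The genotypes overlap in Ins2, and 3 of the 4 Wfs1KO ratios exceed 1.19, the highest of the other genotypes.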

How the data were processed

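Islet RNA of 12 mice was amplified and sequenced on a SOLiD instrument with 75 bp forward and 35 bp reverse reads, and the study's methods name LifeScope and mm10 for mapping. The authors deposited RPKM values, 1 column per animal, rounded to 2 decimals; the tool that counted reads is not given in the sources used here. RPKM values are not counts, so no count test was used. Values were compared as log2(RPKM + 0.1) without further scaling over 13356 of 24078 entries with a mean of at least 1 RPKM. The 6 samples with the highest Ins2 were set against the 6 with the lowest; the difference of group means is given with its standard error, and a gene was counted as without overlap when every high value lay on 1 side of every low value. Samples were grouped by genotype from the labels. The members, gene lists and named genes were chosen with earlier results of these data known. Genes were named by rule: the hormones and Wfs1, up to 10 genes of at least 10 RPKM and 5 of 1 to 10 RPKM without overlap in each direction, and up to 4 genes per list with the largest difference; B2m, Chga, Ddit3, Emr1, Gclc, Gsr, Hspa5, Hsp90b1, Lcn2, Mt1, Pcsk2, Pdx1, Prdx4, Ptprc, Scg2, Scgn, Slc2a2, Sparc, Timp1, Txnrd1, Abcc8, Kcnj11 and Neurod1 were added after their values were seen. Entries were matched to GENCODE M21 for 97.3%, and depth was estimated from low values of short RNA genes, of which 71.7% to 85.9% lay within 0.1 of a whole read. Genotypes were compared pair by pair by limma 3.58.1 in R 4.3.3, using a variance trend and Benjamini-Hochberg adjustment, and by exact permutation tests (scipy 1.17.1). Python 3.11.15, numpy 2.4.6, pandas 2.3.3, biopython 1.88 and matplotlib 3.10.9 were used, and the code was tested on simulated data. Alternatives were other pseudocounts, minimum means, scalings, groupings, a replicate block and each sample left out. A few genes that the rule names are not reported here.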

Additional observations from a re-analysis of the deposited data

Results flagged for a closer look

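For the hormones and the genes without overlap, 62 groups of 6 samples were examined. In 6 of these groups, 1 sample lay farther from the others than Dixon's criterion allows. Chance flags about 1 in 20 groups that are unselected and independent. The groups here shared the same libraries, and most came from genes picked for lack of overlap. No excess over chance is therefore read from the number flagged. Wfs1HZ 2 was the flagged sample in 4 of the 6, all in the low group. Its Iapp, 1059 RPKM, was the lowest, and so was its Tssc1, 0.27 RPKM. Its Timp3, 90.6 RPKM, and its Ldb2, 13.95 RPKM, were the highest. In the same group Wfs1KO 3 had the lowest 2610018G03Rik, 0.43 RPKM. In the high group Wfs1KO 1 was the only sample with a value of Olfr467 above 0, 0.11 RPKM. With all other values of that group at 0, any single value above 0 would have been flagged.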

How the results depend on the processing

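With 6 samples a group and a boundary of 1.06-fold, the counts moved with most settings, and low values are limited by depth. Of the genes higher and lower without overlap (30 and 42 as reported), a mean of at least 0.1 RPKM gave 85 lower and no minimum also 85, a mean of at least 10 RPKM 4 lower, median-of-ratios scaling 99 and 67, quantile normalization 76 higher, the total without Ins1 and Ins2 reads 57 and 22, 4 highest against 4 lowest samples 127 and 463, and centring on genotype means 95 and 96. Median-of-ratios scaling kept 19 of the 30 and 24 of the 42, and quantile normalization 14 and 12. Of the genes at least 2-fold higher and lower (225 and 788), a pseudocount of 1 gave 97 and 163, a mean of at least 0.1 RPKM 364 and 2750, no minimum 370 and 2754, a mean of at least 10 RPKM 81 and 38, median-of-ratios scaling 354 higher, quantile normalization 466 and 361, and 4 against 4 samples 1624 lower. Added after seeing the data, leaving out both Wfs1HZ 2 and Wfs1KO 4 gave 60 higher without overlap and 312 at least 2-fold lower, and a total without acinar and hormone reads 54 and 115 without overlap. With each sample left out in turn the counts were 36 to 116 and 42 to 364 without overlap, and 185 to 318 and 422 to 1141 at least 2-fold. Counts of higher genes without overlap moved most without Wfs1HZ 4 (116), Wfs1KO 3 (69), Wfs1HZ 1 (54) and Wfs1HZ 3 (46). Counts of lower genes moved without Wfs1KO 3 (364), Wfs1KO 2 (81), WT 1 (78), WT 3 (77), Wfs1KO 1 (69), WT 2 (67) and Wfs1HZ 3 (65), and 422 genes at least 2-fold lower were left without Wfs1HZ 2. Of the differences of named genes under all these settings 13 moved by more than the spread within groups. Leaving samples out, or taking 4 against 4, can only keep or add genes without overlap, since fewer values must be separated. All 30 and all 42 genes were kept in each of those settings. Higher counts there do not mark an animal as influential. Why the other counts moved was not tested.

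Animals with the same replicate number did not deviate together in a steady way. Correlations across genes had both signs, from -0.281 to 0.337, and the labels do not say that a number marks a shared litter. With the replicate number as a block the Ins2 differences stayed at -1.02, -0.43 and -0.59 and none passed. Over all alternatives the adjusted p-values of limma were 0.88 to 1 for Wfs1KO against WT, 0.929 to 1 for Wfs1HZ against WT and 0.927 to 1 for Wfs1KO against Wfs1HZ. With no minimum mean the SEs of Ins2 were 64.6, 172 and 93.0, so that setting could not have shown a difference. With each animal left out the differences were -1.44 to -0.66, -0.87 to 0.27 and -1.29 to -0.15. The difference between Wfs1HZ and WT reversed, to 0.27, without Wfs1HZ 2.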
